A study of Mus musculus with 24 samples.

Results

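The interferon response and antigen presentation were followed through 38 genes, taken by name from 50686 genes counted in each library: 30 interferon-induced genes and 8 genes of the MHC class I pathway. Of the 38, 37 passed the filter on low counts. The remaining gene, Zbp1, a sensor of Z-form nucleic acid, averaged 0.142 CPM in dKO and 0.199 CPM in WT at day 20 (CPM, counts of a gene per 1 M gene counts, with TMM scaling of libraries; M, mega).

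The mice were C57BL/6 animals of both sexes at day 10 or day 20. Double knockouts carried Pank1-/- together with Syn-Pank2-/- (dKO), and their controls had a wild-type genotype (WT). The labels do not explain Syn, so the cells in which Pank2 was removed are not known here. Both genes code for pantothenate kinases, which begin the synthesis of coenzyme A, and loss of PANK2 in humans causes pantothenate kinase-associated neurodegeneration. The tissue was flash-frozen and is labelled only as the back left brain, and its polyadenylated RNA was sequenced with strand kept. Each combination of genotype, sex and day had 3 libraries, 24 in all. Replicate numbers used here follow accession order and only name libraries. The labels do not say that libraries came from separate animals, and p-values therefore cover only the spread among libraries.

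Gene counts ran from 9.19 to 44.7 M in 23 libraries, so that 1 count was worth 0.0224 to 0.109 CPM. The dKO male day 10 replicate 3 library held 45964 gene counts and was left out, which leaves 5 dKO libraries at day 10 and 6 in each other genotype and day. Another library stood apart: in dKO male day 10 replicate 2, Ttr, a choroid plexus gene, was at 1.90 CPM, against 196 to 603 CPM in the other 22. Pank1 was lower in dKO at both days (log2 change -1.59 ± 0.07 SE at day 20 and -1.47 ± 0.08 at day 10). Pank2 was lower at day 20 (-0.43 ± 0.05, adjusted p = 1.06e-06) and was not called at day 10 (-0.09 ± 0.06, adjusted p = 0.321). Markers of neurons, Snap25 and Gad1 among them, summed to 2688 to 3042 CPM in dKO and 3105 to 3223 CPM in WT at day 20.

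Interferons are secreted when cells sense foreign or misplaced nucleic acid. Type I interferon signals through a receptor and JAK kinases to a complex that holds STAT2 and IRF9, binds a DNA element called the ISRE and switches on interferon-stimulated genes. Interferon gamma acts through the GAS element and raises MHC class I genes. MHC class I molecules pair a heavy chain with beta-2-microglobulin and show peptides, cut by the proteasome and carried by the TAP transporter, at the cell surface. In healthy brain, low tonic interferon signalling is seen in microglia and vessels, and MHC class I is also made by some neurons.

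The promoters of these genes are shown first, because the ISRE is the DNA element that many of them share. RefSeq (GRCm38.p6) gave a window of 250 bases before to 50 bases after the start for 31 of the 38 genes; Tap2, Parp9, Parp14, Usp18, Ifi27, Zbp1 and Rtp4 had no entry. The ISRE letters (GAAA, any 2 bases, GAAA), searched on both strands and with overlapping matches allowed, was in 13 of the 31 (41.9%), against 3.99% of 27025 genes with a window. The GAS motif TTCNNNGAA, which reads the same on both strands, was in 7 (22.6%), against 9.55% of genes. By role, the ISRE letters were in 3 of 4 IFIT genes, 5 of 10 other antiviral genes and 3 of 6 sensors and transcription factors. They were in 1 of 4 windows of the ISG15 and ADP-ribosylation group, in B2m alone of 3 class I genes, and in 0 of 4 peptide supply genes. The 6 printed windows are those of genes with a match and the smallest p at day 20, each from its gene's own strand, with the ISRE letters in capitals.
B2m (chr2:122147437-122147736, plus strand): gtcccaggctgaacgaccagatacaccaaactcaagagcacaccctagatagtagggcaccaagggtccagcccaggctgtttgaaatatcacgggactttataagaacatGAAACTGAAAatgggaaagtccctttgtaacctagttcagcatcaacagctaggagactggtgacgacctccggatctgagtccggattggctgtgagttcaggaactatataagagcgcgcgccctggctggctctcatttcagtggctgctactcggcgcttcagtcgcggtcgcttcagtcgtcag
Ifih1 (chr2:62646206-62646505, minus strand): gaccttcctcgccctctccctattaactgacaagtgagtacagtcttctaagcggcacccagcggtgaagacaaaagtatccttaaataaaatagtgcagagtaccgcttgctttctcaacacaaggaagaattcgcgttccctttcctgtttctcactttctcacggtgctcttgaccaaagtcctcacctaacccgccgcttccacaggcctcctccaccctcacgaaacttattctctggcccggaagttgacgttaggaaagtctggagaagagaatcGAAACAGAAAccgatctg
Bst2 (chr8:71537423-71537722, minus strand): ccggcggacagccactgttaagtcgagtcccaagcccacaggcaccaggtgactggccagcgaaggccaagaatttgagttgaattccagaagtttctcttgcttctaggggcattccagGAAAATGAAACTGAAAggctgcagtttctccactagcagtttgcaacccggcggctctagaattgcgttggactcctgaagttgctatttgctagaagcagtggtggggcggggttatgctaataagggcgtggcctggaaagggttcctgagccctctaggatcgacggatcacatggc
Oas1a (chr5:120907476-120907775, minus strand): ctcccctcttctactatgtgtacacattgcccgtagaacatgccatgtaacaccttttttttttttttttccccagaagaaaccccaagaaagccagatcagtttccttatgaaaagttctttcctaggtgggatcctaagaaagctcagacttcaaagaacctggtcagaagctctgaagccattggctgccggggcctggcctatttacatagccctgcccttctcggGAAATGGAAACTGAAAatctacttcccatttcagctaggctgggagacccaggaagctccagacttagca
Gbp7 (chr3:142530086-142530385, plus strand): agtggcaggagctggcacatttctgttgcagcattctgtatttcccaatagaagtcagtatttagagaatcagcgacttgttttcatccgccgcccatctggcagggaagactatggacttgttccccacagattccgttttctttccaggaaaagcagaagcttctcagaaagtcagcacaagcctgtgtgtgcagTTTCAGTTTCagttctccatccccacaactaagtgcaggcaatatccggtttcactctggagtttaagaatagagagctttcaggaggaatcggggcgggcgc
Isg15 (chr4:156200769-156201068, minus strand): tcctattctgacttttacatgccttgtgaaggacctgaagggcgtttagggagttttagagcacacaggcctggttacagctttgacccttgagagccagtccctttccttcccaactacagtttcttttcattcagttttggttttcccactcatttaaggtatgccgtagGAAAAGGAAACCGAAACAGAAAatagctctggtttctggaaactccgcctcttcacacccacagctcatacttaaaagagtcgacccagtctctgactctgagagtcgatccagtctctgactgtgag

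In B2m the match began 139 bases before the start, and in Ifih1 it lay 32 bases after it. Bst2 and Oas1a each held 2 overlapping matches, and Isg15 held 3. In Gbp7 the match was on the other strand. A match is a run of letters in this window and was not tested as a binding site.

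At day 20, with both sexes together, most of the interferon-induced genes followed here were lower in dKO. Of the 8 class I pathway genes only B2m was called lower. Of 37 genes tested, 24 fell and 5 rose in dKO (edgeR's quasi-likelihood test, Benjamini-Hochberg adjusted p under 0.05). Over all 21657 genes, 38% were called, 19.2% lower and 18.8% higher. The median log2 change of the 37 was -0.66, against -0.0003 over all genes. Among the 29 interferon-induced genes tested, 23 fell and 2 rose (median -0.80). Among the 8 class I pathway genes, 1 fell and 3 rose (median 0.0005). The genes that rose were Stat2, Parp12, H2-D1, Tap2 and Tapbp. Those not called were Irf1, Ifit2, Xaf1, Lgals3bp, H2-K1, Tap1, Psmb8 and Psmb9. In bulk tissue, fewer cells of a type and less RNA per cell cannot be told apart.

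**Figure D1:**
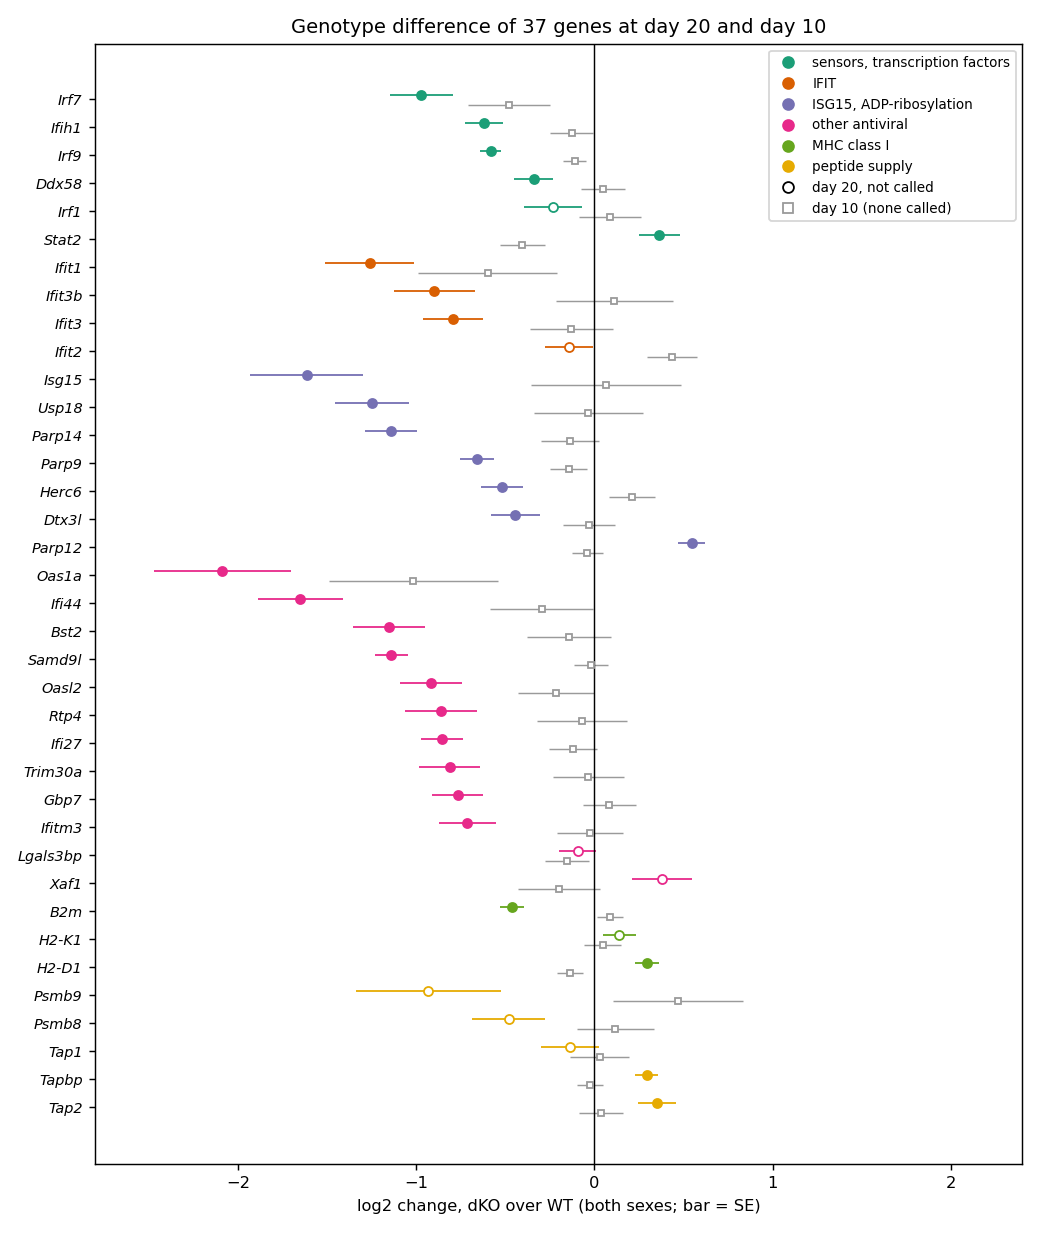
Log2 change of 37 genes, dKO over WT with both sexes together, with SE bars, grouped by role (colours) and ordered within a role; circles are day 20 (filled where called) and grey squares day 10. At day 20, 24 genes lie left of 0 and 5 right of it among those called, and at day 10 none was called.

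The groups of libraries were also compared directly. In 13 of the 37 genes all 6 dKO libraries lay below all 6 WT libraries (10.3% of all genes tested did so). In 3 genes, Stat2, Parp12 and H2-D1, all 6 dKO libraries lay above (9.79% of all genes).

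Among sensors and transcription factors, 4 of 6 tested genes fell and 1 rose. Irf9 (ENSMUSG00000002325, chromosome 14, 55603571 to 55610030, GRCm38, plus strand), a DNA-binding part of the complex that acts at the ISRE, was at 9.60, 11.5 and 12.8 CPM in dKO (lowest, median and highest of 6), against 15.3, 16.9 and 18.7 CPM in WT. The genotypes did not overlap, and the log2 change was -0.58 ± 0.06 (adjusted p = 1.38e-07). Ifih1, which encodes the double-stranded RNA sensor MDA5, was at 3.35, 5.03 and 5.94 CPM in dKO, against 5.73, 7.44 and 8.70 CPM in WT (-0.62 ± 0.11, adjusted p = 8.85e-05). Its ranges met at the edge, where the highest dKO library passed the lowest WT library. Irf7, the transcription factor that amplifies type I interferon production, was at 0.713, 1.14 and 1.55 CPM in dKO, against 1.74, 2.19 and 2.75 CPM in WT (-0.97 ± 0.17, adjusted p = 0.000134). With unstranded counts the change of Irf7 was -0.47 and still called. Ddx58, which encodes the RNA sensor RIG-I, changed least of those that fell (-0.34 ± 0.11, adjusted p = 0.0183). Its call was lost without dKO male day 20 replicate 1 and without WT female day 20 replicate 1, with an adjusted p of up to 0.0597. Irf1, a factor induced mainly by interferon gamma, was not called (-0.23 ± 0.16, adjusted p = 0.288).

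Stat2, the partner of Irf9 in that complex, moved the other way. It was at 54.2, 60.6 and 74.4 CPM in dKO, against 39.8, 48.2 and 53.6 CPM in WT (0.36 ± 0.11, adjusted p = 0.0163). All 6 dKO libraries lay above the WT libraries by a narrow gap, the 3 male ones from 66.1 CPM upwards. The log2 change of Stat2 was 0.09 in females, where it was not called, and 0.64 in males, where it was. By edgeR this difference between the sexes was not called. Without a filter on low counts its adjusted p was 0.0648. Irf9 and the nearby Rnf31 overlap on the same strand over 123 bases.

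In the IFIT family, whose proteins bind viral RNA, 3 of 4 genes fell. Ifit1 was at 0.588, 1.82 and 2.76 CPM in dKO, against 2.99, 3.82 and 4.81 CPM in WT (-1.26 ± 0.25, adjusted p = 0.000365). Ifit3 was at 2.99, 4.43 and 5.28 CPM in dKO, against 5.95, 7.22 and 9.99 CPM in WT (-0.80 ± 0.17, adjusted p = 0.00067). Both genes separated the genotypes in every library. With unstranded counts the change of Ifit1 was -0.62 (adjusted p = 0.0348). Ifit3b, a near copy of Ifit3 with which it may share reads, was at 1.04, 2.61 and 3.15 CPM in dKO, against 2.79, 4.29 and 5.44 CPM in WT (-0.90 ± 0.23, adjusted p = 0.00331), and its ranges overlapped. Ifit2 did not pass (-0.14 ± 0.14, adjusted p = 0.435).

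Of 7 genes for ISG15 conjugation and ADP-ribosylation, 6 fell. Parp14, an ADP-ribosyltransferase with macrodomains, was at 1.90, 3.81 and 5.01 CPM in dKO, against 7.31, 7.78 and 9.02 CPM in WT (-1.14 ± 0.14, adjusted p = 2.08e-06). Parp9 was at 2.4, 3.45 and 4.34 CPM in dKO, against 4.84, 5.42 and 5.67 CPM in WT (-0.66 ± 0.09, adjusted p = 8.83e-06). Neither gene overlapped between the genotypes. Dtx3l, the ubiquitin ligase that pairs with PARP9, fell by less (-0.44 ± 0.14, adjusted p = 0.0123). Isg15, the ubiquitin-like modifier itself, was scarce, at 0.0905 to 0.658 CPM in dKO against 0.415 to 1.63 CPM in WT (-1.61 ± 0.32, adjusted p = 0.00034). Usp18, which removes ISG15 from proteins, changed by -1.25 ± 0.21 (adjusted p = 5.66e-05), and Herc6, the ligase that attaches it in the mouse, by -0.52 ± 0.12 (adjusted p = 0.00127). Herc6 overlaps Gm45193 on the same strand over 45031 bases, introns included. Parp12, another ADP-ribosyltransferase, was the exception. It was at 13.3, 16.9 and 19.2 CPM in dKO, against 9.79, 11.6 and 12.6 CPM in WT (0.55 ± 0.08, adjusted p = 7.36e-06), with no overlap.

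Among 12 other antiviral genes, 10 fell and 2, Xaf1 and Lgals3bp, were not called. Samd9l (ENSMUSG00000047735, chromosome 6, 3372257 to 3399572, GRCm38, minus strand), a restriction factor, had the smallest p of the 37. It was at 3.12, 4.33 and 5.13 CPM in dKO, against 7.59, 9.18 and 10.3 CPM in WT (-1.14 ± 0.09, adjusted p = 5.47e-09), with no overlap. Ifi27 was at 5.52, 7.31 and 9.61 CPM in dKO, against 9.88, 12.6 and 18.5 CPM in WT (-0.86 ± 0.12, adjusted p = 6.06e-06). Its genotypes were separated by a narrow gap. Bst2, which encodes tetherin, a protein that holds budding virus at the cell surface, was at 0.549, 1.18 and 1.91 CPM in dKO, against 1.67, 2.93 and 3.54 CPM in WT (-1.15 ± 0.20, adjusted p = 0.000104). The 2 highest dKO libraries, both female, lay above the lowest WT library, also female. The steepest changes were in scarce genes, Oas1a (-2.09 ± 0.38), an enzyme that makes 2-5A after sensing double-stranded RNA, and Ifi44 (-1.65 ± 0.24). Oas1a averaged 0.161 ± 0.110 CPM in dKO and 0.704 ± 0.152 CPM in WT (SD, n = 6 each). The others that fell ran from -0.71 (Ifitm3, which blocks viral entry) to -0.92 (Oasl2). Among them, Rtp4 overlaps Gm45338 on the same strand over 39791 bases, and Gbp7 overlaps Gm43802 over 637 bases, introns included.

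The class I chains did not move together. B2m (ENSMUSG00000060802, chromosome 2, 122147686 to 122153083, GRCm38, plus strand), the light chain, was at 14.4, 17.2 and 21.5 CPM in dKO, against 21.9, 23.6 and 26.1 CPM in WT (-0.46 ± 0.07, adjusted p = 1.2e-05). H2-D1 (ENSMUSG00000073411, chromosome 17, 35262730 to 35267499, plus strand), a heavy chain, was at 58.0, 61.5 and 67.6 CPM in dKO, against 46.5, 50.4 and 54.9 CPM in WT (0.29 ± 0.07, adjusted p = 0.00143). Both separated the genotypes completely, in opposite directions. H2-K1, the other classical heavy chain, was at 14.1, 15.9 and 16.1 CPM in dKO, against 12.2, 13.8 and 16.6 CPM in WT, and was not called (0.14 ± 0.09, adjusted p = 0.234). H2-K1 and H2-D1 are near copies, so their split of reads is uncertain. Per kilobase of exon, the mean level of H2-D1 was 24 CPM in dKO and 19.6 CPM in WT, and that of B2m 20.4 CPM in dKO and 27.9 CPM in WT. On that scale B2m stood above H2-D1 in WT and below it in dKO. The scale divides by all annotated exon bases of a gene, 2579 for H2-D1 and 860 for B2m. The order between these genes depends on those lengths.

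In peptide supply, 2 of 5 genes rose and 3 were not called. In males alone 2 of the 5 were called lower and 1 higher (17.3% of all genes in each direction). In females 0 of the 5 were called (10.4% of all genes). Tapbp, which encodes tapasin and ties class I to the TAP transporter, was at 26.7, 28.8 and 31.2 CPM in dKO, against 21.8, 23.3 and 27.6 CPM in WT (0.29 ± 0.07, adjusted p = 0.00122). Tap2, a TAP subunit, was at 6.13, 6.91 and 7.65 CPM in dKO, against 4.21, 5.50 and 6.41 CPM in WT (0.35 ± 0.11, adjusted p = 0.0126). In both genes the ranges overlapped slightly. Psmb8, an immunoproteasome subunit, was at 0.498, 0.934 and 1.20 CPM in dKO, against 1.0, 1.18 and 1.5 CPM in WT and was not called (-0.48 ± 0.21, adjusted p = 0.0687). Psmb9, another subunit, was at -0.93 ± 0.41 (adjusted p = 0.0757), and Tap1 at -0.14 ± 0.16 (adjusted p = 0.539). Psmb8 was called lower in 2 of 30 alternatives and Psmb9 in 2 of 28. Tapbp overlaps Zbtb22 on the same strand over 3422 bases, and the Tap2 call was lost with unstranded counts (adjusted p = 0.138).

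**Figure D2:**
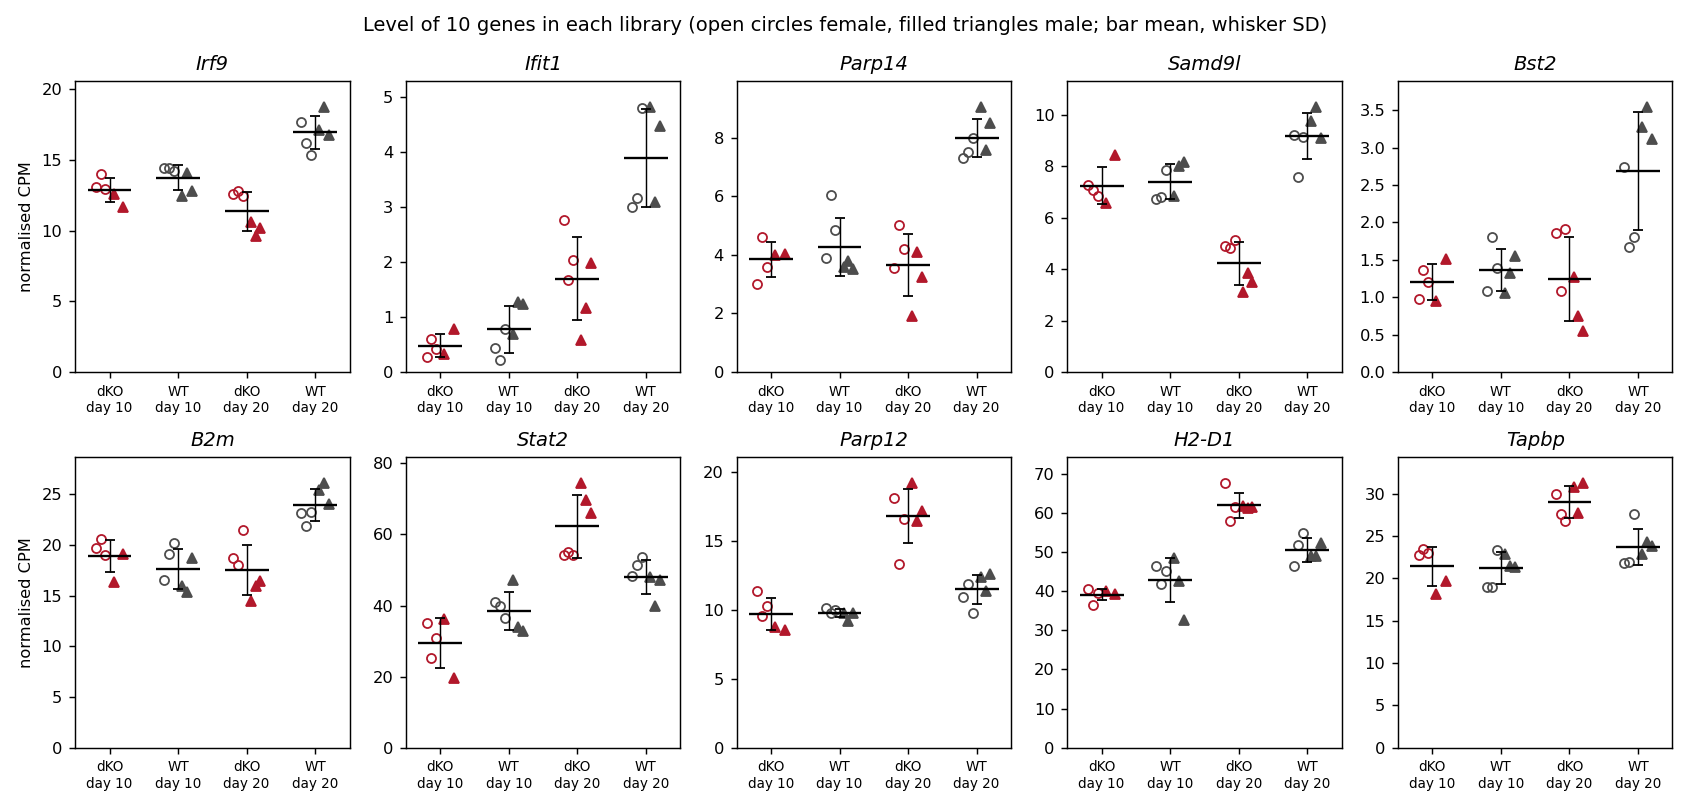
Normalised CPM of 10 genes in each library (open circles female, filled triangles male), with group mean and SD, for dKO and WT at day 10 and then at day 20. At day 20 Samd9l lies at 3.12 to 5.13 CPM in dKO and 7.59 to 10.3 CPM in WT, and Parp12 at 13.3 to 19.2 CPM in dKO and 9.79 to 12.6 CPM in WT.

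At day 10 the genotypes could not be separated on these genes. By edgeR 0 of 37 were called (4.99% of all genes were, 3.23% higher and 1.76% lower). Of the 37, 4 had an unadjusted p under 0.05 (24.4% of all genes), and DESeq2 called 2 (2105 over all genes). The median log2 change was -0.03. In no gene did all libraries of a genotype lie to one side, as 0.947% of all genes did below and 1.04% above. The smallest adjusted p was that of Stat2, at 29.5 ± 6.92 CPM in dKO (SD, n = 5) and 38.5 ± 5.27 CPM in WT (n = 6), a log2 change of -0.40 ± 0.13 (adjusted p = 0.0656). That change of Stat2 was -0.66 without dKO male day 10 replicate 1 and -0.23 without dKO male day 10 replicate 2, and 4 of 30 alternatives called it. Ifit2 was at 13.3 ± 3.99 CPM in dKO and 10.1 ± 1.32 CPM in WT (0.44 ± 0.14, adjusted p = 0.0683). The change of Ifit2 was 0.61 without that replicate 1 and 0.18 without that replicate 2, and 2 of 30 alternatives called it. Samd9l was level, at 7.24 ± 0.719 CPM in dKO and 7.39 ± 0.672 CPM in WT (-0.02 ± 0.10, adjusted p = 0.956). B2m was at 18.9 ± 1.58 CPM in dKO and 17.7 ± 1.97 CPM in WT (0.09 ± 0.07, adjusted p = 0.488). The count over all genes at this day rested on single libraries: it was 1081, but 15 without dKO male day 10 replicate 2 and 4516 without dKO male day 10 replicate 1. Without that male replicate 1, 2 of the 37 genes were called. Within 1 sex at day 10, edgeR called 0 of the 37 in females (0.319% of all genes, 0.143% higher and 0.175% lower) and 0 in males (0.0139%, 0.00923% higher and 0.00462% lower). Of the 37, 2 in females and 3 in males had an unadjusted p under 0.05 (17.8% and 18.4% of all genes). DESeq2 called 0 in either sex (789 over all genes in females and 572 in males).

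Whether the genotype difference changed between the days was tested as an interaction. It was called for 20 of the 37 genes (28.3% of all genes). The day 20 difference was lower in 16 (14.7% of all genes) and higher in 4 (13.6% of all genes). The 4 were Stat2, Parp12, H2-D1 and Tapbp. Samd9l (-1.12 ± 0.13, adjusted p = 4.14e-06), B2m (-0.55 ± 0.10, adjusted p = 0.000316) and Irf9 (-0.47 ± 0.09, adjusted p = 0.00047) had the smallest p. Without dKO male day 10 replicate 2, the library low in Ttr, the count of 16 became 10, and the 4 were still 4. Of the 20 calls, 12 were made under every alternative tried. The calls lost under at least 1 were those of Ifitm3, Trim30a, Ifit2, Isg15, Ifih1, Usp18, Parp9 and Bst2.

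In WT most of the genes were higher at the later day. Of 37 genes, 29 rose and 1, Tap1, fell at day 20 against day 10 (50.4% of all genes were called, 25.5% higher and 24.9% lower). Ifit1 rose the furthest (2.42 ± 0.27, adjusted p = 1.26e-07), averaging 3.89 ± 0.893 CPM at day 20 and 0.774 ± 0.426 CPM at day 10. Ifit3b (2.36 ± 0.25), Ifit3 (2.29 ± 0.19) and Usp18 (2.24 ± 0.22) were next. Of the 30 calls, 28 were made under every alternative tried, while Stat2 was lost in 9 of 30 and Oas1a in 6 of 29. In 20 of the genes all day 20 libraries lay above all day 10 libraries (15.6% of all genes).

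In dKO fewer genes rose, 15 of 37, and 6 fell (61.6% of all genes were called, 30.4% higher and 31.2% lower). Of the 29 that rose in WT, 14 also rose in dKO, 13 were not called there, and 2, Irf9 and Samd9l, fell. This split was not counted over all genes. The fall of Samd9l was called under every alternative, while that of Irf9 (-0.17) was lost in 8 of 30. Of the 21 calls in dKO, 15 were made under every alternative. Irf7 and Usp18 were lost with unstranded counts (log2 changes 0.32 and 0.16, against 0.79 and 1.02 with stranded counts), and Oasl2 and Ifi27 without dKO male day 10 replicate 1. Psmb9, which fell by 1.53, was at -0.68 without dKO male day 10 replicate 2 (adjusted p = 0.315). The 13 included Ifih1, Ddx58, Isg15, Parp9, Parp14, Bst2 and B2m. By the interaction, 14 of the 29 had a smaller course in dKO and 3 a larger one. Over all genes, whatever their course in WT, the interaction was lower in 14.7% and higher in 13.6%. Of the 24 genes lower in dKO at day 20, 22 had risen in WT, as had 29 of all 37. Both comparisons use the WT day 20 libraries, and the share over all genes was not counted. Dtx3l and Gbp7 were the others of the 24. Gbp7, a guanylate-binding protein, was at 3.52 ± 1.25 CPM in dKO at day 20 and 6.31 ± 0.263 CPM in dKO at day 10 (-0.87 ± 0.15, adjusted p = 3.79e-05). In WT it was at 5.83 ± 0.853 CPM at day 20 and 5.98 ± 0.718 CPM at day 10 (-0.02 ± 0.14, adjusted p = 0.903). Parp12 rose in dKO (0.82 ± 0.08, adjusted p = 1.99e-08) and by less in WT (0.23 ± 0.08, adjusted p = 0.0152). The contrasts share libraries with each other and with the day 20 comparison.

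**Figure D3:**
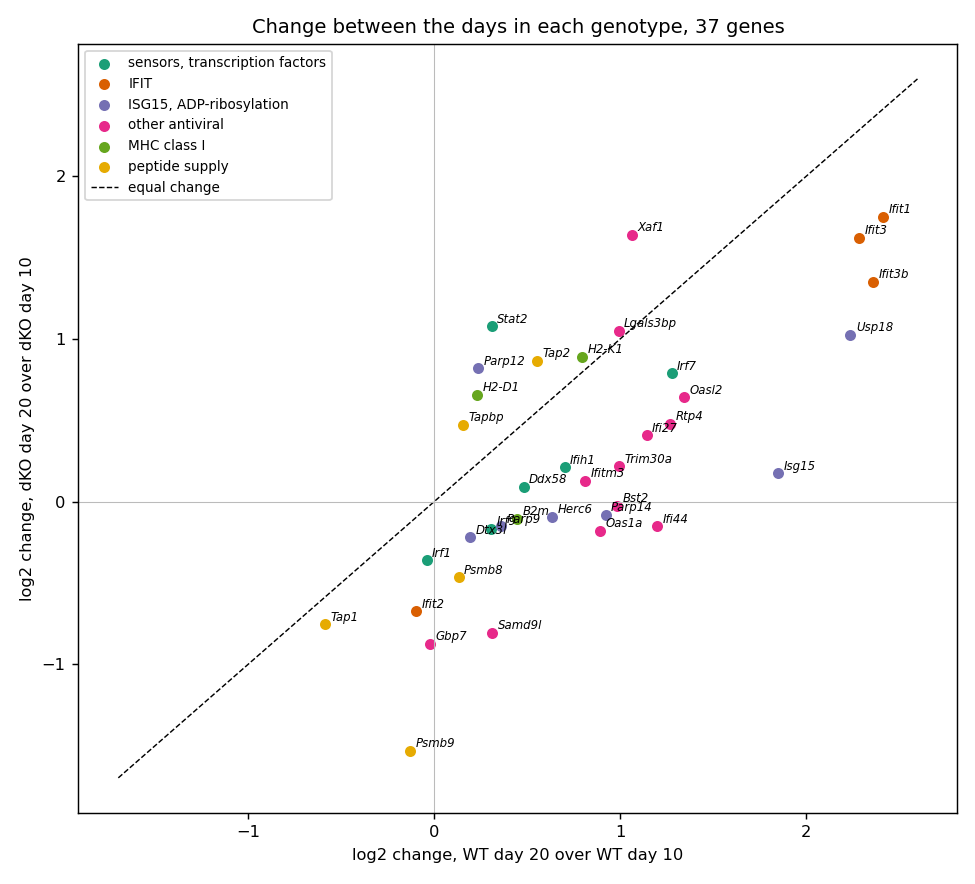
Log2 change of day 20 over day 10 in dKO (vertical axis) and in WT (horizontal axis) for 37 genes, coloured by role; the dashed line marks equal change. Genes of the IFIT family rose in both genotypes except Ifit2, and Samd9l fell in dKO and rose in WT. Of the 8 genes above the line, Stat2, Parp12, H2-D1 and Tapbp were called by the interaction.

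Within each sex the day 20 changes were compared next. All 29 genes called at day 20 had the same sign in females and in males. Their calls rest on the mean of the female and male differences, which favours such agreement. The share over all called genes was not counted. The median log2 change of the 37 was -0.28 in females and -1.03 in males. The median size of change over all genes was 0.192 in females and 0.295 in males. In females 5 genes were called, 1 higher and 4 lower (10.4% of all genes, 5.17% higher and 5.18% lower). In males 30 were called, 4 higher and 26 lower (34.6% of all genes, 17.3% in each direction). The count in females was 3 without dKO female day 20 replicate 1 and 10 when only the groups compared were fitted.

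The difference between the sexes was tested directly at day 20. By edgeR 0 of 37 genes, and 0% of all genes, were called for a genotype by sex interaction. Of the 37, 22 had an unadjusted p under 0.05 (14.9% of all genes), 21 of them more negative in males. DESeq2 called 4 (347 over all genes), the fit without a filter 3, and a fit of only the day 20 groups 11. Counts over all genes under the other fits are given at the end. Without dKO male day 10 replicate 1, edgeR called 3. Ifi27 had the smallest p (-1.0 ± 0.24, adjusted p = 0.0702). It was at 5.52, 6.31 and 6.47 CPM in dKO males, against 12.4, 16.2 and 18.5 CPM in WT males. In females it was at 8.15, 8.82 and 9.61 CPM in dKO, against 9.88, 11.2 and 12.8 CPM in WT. The dKO males lay below every dKO female, and 2 of the 3 WT males lay above every WT female. Bst2 was at 0.549, 0.751 and 1.27 CPM in dKO males against 3.12, 3.27 and 3.54 CPM in WT males, and at 1.09, 1.86 and 1.91 CPM in dKO females against 1.67, 1.80 and 2.74 CPM in WT females. Its dKO males and females overlapped, while every WT male lay above every WT female. Over the 30 interferon-induced genes, the mean log2(CPM + 0.5) was 1.5 to 1.74 in dKO males against 2.4 to 2.55 in WT males, and 1.97 to 2.0 in dKO females against 2.20 to 2.29 in WT females. Cell markers were read within each sex too. By edgeR the interaction was called for 0 of 17 microglial and 0 of 5 erythrocyte markers (0% of all genes). Of 17 microglial markers, 13 fell in males (17.3% of all genes) and 3 in females (5.18% of all genes). Their median log2 change was -0.84 in males and -0.32 in females. All 17 were more negative in males, as were 10946 of all 21657 genes tested. All 5 erythrocyte markers fell in both sexes, with a median of -2.92 in males and -2.10 in females. The part of these markers in the sex values was not tested. At day 10 the interaction was called for 0 genes of 37 by edgeR (0% of all genes). An unadjusted p under 0.05 was found for 2 of the 37 (11.5% of all genes), and DESeq2 called 0.

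**Figure D4:**
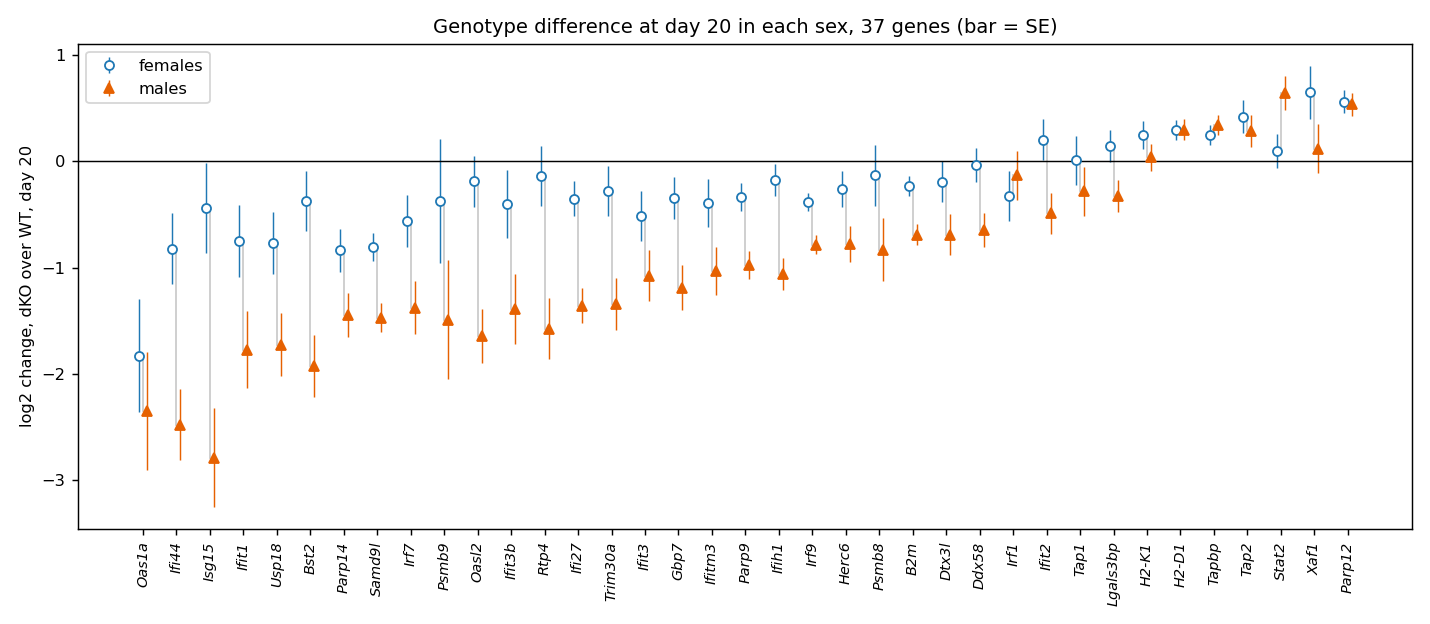
Log2 change at day 20, dKO over WT, in females (open circles) and males (filled triangles) for 37 genes ordered by the change over both sexes, with SE bars. The male value lies below the female one for 33 of the 37 genes (10946 of all 21657 genes tested), and Parp12 and H2-D1 have close values in both sexes.

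The rest of the pathway was read from lists of other genes. The interferons in the list were hardly detected: 0 of 11 ligand genes passed the filter, and the one with most reads, Ifna2, had 13 counts over 23 libraries. The alpha interferons listed were Ifna1, Ifna2, Ifna4 and Ifna5. Multimapping reads are not part of the gene counts. Ifnb1 and Ifna1 had 0 counts, which allows up to 0.00545 CPM over all libraries together and covers counting error only. Of 14 receptor and signalling genes, 3 rose and 3 fell in dKO at day 20, when 18.8% of all genes were called higher and 19.2% lower. Pias1, an inhibitor of STAT signalling, rose (0.30 ± 0.04, adjusted p = 8.09e-06), as did Socs3, a feedback inhibitor (0.80 ± 0.24, adjusted p = 0.0139), and Jak2 (0.14 ± 0.05, adjusted p = 0.0185). Il10rb, a receptor chain shared by interferon lambda and IL-10, fell (-0.63 ± 0.13, adjusted p = 0.000428). The type I receptor gene Ifnar1 was at 59.6 ± 1.39 CPM in dKO and 58.4 ± 2.38 CPM in WT (0.03 ± 0.04, adjusted p = 0.618).

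Of 18 upstream sensing genes, 3 rose and 6 fell, against the same 18.8% higher and 19.2% lower of all genes. Irf3, the factor that starts interferon transcription, was at 16.9 ± 3.73 CPM in dKO and 27.9 ± 1.03 CPM in WT (-0.74 ± 0.10, adjusted p = 2.64e-06). Dhx58, the RIG-I-like protein LGP2, also fell (-0.79 ± 0.19, adjusted p = 0.00196). Tlr7, a sensor of single-stranded RNA, rose (0.80 ± 0.14, adjusted p = 7.66e-05), as did the kinase gene Ikbke (0.67 ± 0.15, adjusted p = 0.00137).

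Among other interferon-stimulated genes, 17 of 37 tested fell and 3 rose (19.2% and 18.8% of all genes). Rsad2, which encodes viperin, was at 1.1 ± 0.331 CPM in dKO and 5.51 ± 1.59 CPM in WT (-2.30 ± 0.37, adjusted p = 0.000104). Slfn5 was at 5.0 ± 1.01 CPM in dKO and 14.3 ± 1.27 CPM in WT (-1.52 ± 0.10, adjusted p = 3.63e-10). Of 12 interferon-inducible GTPases, 9 fell (19.2% of all genes) and 3 were not called; those that fell included Gbp3 (-1.40 ± 0.15, adjusted p = 1.5e-07), Gbp2 (-1.5 ± 0.21, adjusted p = 5.53e-06) and Irgm2 (-1.04 ± 0.16, adjusted p = 2.51e-05). In other class I pathway genes, 6 of 16 fell (19.2% of all genes). They included the chaperones Calr (-1.01 ± 0.08, adjusted p = 3.44e-09) and Pdia3 (-0.77 ± 0.07, adjusted p = 1.97e-08), which serve all folding in the endoplasmic reticulum, and H2-T24, a non-classical class I gene (-1.99 ± 0.27, adjusted p = 4.36e-06). Of 7 class II pathway genes, 2 fell (again 19.2% of all genes), Cd74 (-0.71 ± 0.19, adjusted p = 0.0056) and H2-Aa (-1.22 ± 0.41, adjusted p = 0.0222). Oas1a, H2-T24 and the guanylate-binding genes have near copies in the genome, so their own share of reads is uncertain.

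Markers of several cell types were lower in dKO at day 20 alongside these genes. Over all genes, 19.2% were called lower and 18.8% higher. Of 17 microglial markers 12 fell, and their summed level was 147 to 219 CPM in dKO and 238 to 283 CPM in WT. Among them, Fcrls was at 1.5 ± 0.894 CPM in dKO and 9.99 ± 1.32 CPM in WT, and P2ry12 at 5.67 ± 2.14 CPM in dKO and 17.2 ± 1.32 CPM in WT. Of 11 endothelial markers 8 fell, with sums of 263 to 332 CPM in dKO and 358 to 379 CPM in WT. Of 7 markers of border macrophages 5 fell, with sums of 11.3 to 21.1 CPM in dKO and 17.5 to 21.5 CPM in WT. Of 6 pericyte markers 4 fell and 1 rose, with sums of 137 to 162 CPM in dKO and 208 to 246 CPM in WT. All 5 fibroblast markers fell, with sums of 81.4 to 114 CPM in dKO and 145 to 219 CPM in WT. All 5 erythrocyte markers fell too, with sums of 75.4 to 130.1 CPM in dKO and 316 to 669 CPM in WT. The part of these cell types in the interferon result was not tested.

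Against the same 19.2% of all genes lower and 18.8% higher, 2 of 7 astrocyte markers rose and 2 fell. Their sums were 3423 to 3938 CPM in dKO and 3902 to 4168 CPM in WT. Of 8 neuronal markers 2 fell. Of 6 oligodendrocyte markers 2 fell, with sums of 10135 to 12616 CPM in dKO and 13026 to 16704 CPM in WT, which did not overlap. Of 5 choroid plexus markers 2 fell, with sums of 219.7 to 513 CPM in dKO and 497 to 644 CPM in WT. The 2 genes of the dendritic list that were tested, Flt3 and Itgax, fell. The list summed to 28.9 to 34.8 CPM in dKO and 36.4 to 39.9 CPM in WT. Almost all of that sum was Flt3, with 15005 counts over all 23 libraries. Itgax had 150 counts, Clec9a 32, Cd209a 15 and Xcr1 3, so the sum says little about dendritic cells. Of the lymphocyte markers 1 of 9 passed the filter and was not called, and of those of monocytes and neutrophils 3 of 6 passed and were not called. Summed lymphocyte markers were 0.110 to 0.634 CPM in dKO and 0.292 to 0.967 CPM in WT, and Cd8a and Cd3d were at 0 in 19 of 23 libraries. At day 10, 3 of 6 oligodendrocyte markers were lower in dKO (median log2 change -0.60) and 2 of 8 neuronal markers higher (0.12). Within females or males alone 0 of either list were called (0.319% and 0.0139% of all genes). The oligodendrocyte sums overlapped, at 3507 to 5478 CPM in dKO and 5147 to 10358 CPM in WT. As given above, the count over all genes at day 10 rested on single libraries. Over all genes at that day, 1.76% were lower and 3.23% higher. The median was 0.04 over the microglial markers, -0.03 over those of border macrophages and -0.37 over those of erythrocytes.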

How the data were processed

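Stranded mRNA libraries were read from the raw gene counts that the authors deposited, 1 table per library. STAR 2.5.2b, HTSeq and the build GRCm38.p5 are named, without their roles, per the submitters' processing notes; the annotation used for counting is not given in the sources used here. Counts of the reverse strand were taken; those of the forward strand came to 5.22 to 7.46% of them. Of 50686 gene identifiers, 50462 matched GENCODE M21. The 4 entries that name no gene stayed out of library sizes and tests; no-feature reads were 41.7 to 47.5%, unmapped 7.65 to 11.0%, multimapping 4.77 to 5.94% and ambiguous 0.589 to 1.05% of reads.

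Libraries with at least 1 M gene counts were kept (23 of 24). In R 4.3.3, edgeR 4.0.16 filtered genes with filterByExpr, scaled by TMM, and fitted 8 group means with robust glmQLFit; glmQLFTest was two-sided and p-values were Benjamini-Hochberg adjusted over 21657 genes. SE is the log2 change divided by the root of its F statistic. The steps were tested on simulated data. Alternatives were all 24 libraries, RLE size factors, no filter, a mean of at least 1 CPM, DESeq2 1.42.0, unstranded counts, only the groups compared, and each library left out.

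The genes, lists and tests were chosen with earlier results of these data known. Values by library are given for the 3 genes of each role with the smallest day 20 p and a mean of at least 1 CPM, for genes called higher, and for the 3 smallest p of each interaction; up to 4 called genes were named from each other list. Other genes named were chosen after their values were seen. Promoter windows and coordinates of windows are RefSeq's on GRCm38.p6.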

Additional observations from a re-analysis of the deposited data

Results flagged for a closer look

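In 4 of 148 groups of libraries examined (1 gene in 1 genotype and day), a single library lay far from the others; chance gives about 1 in 20. Ifit3 was at 2.4 CPM in dKO male day 10 replicate 2, the library low in Ttr, with the nearest dKO library at 1.36 CPM. Xaf1 was at 0.557 CPM in dKO female day 10 replicate 3, with the nearest at 1.0 CPM. Ifit2 was at 7.62 CPM in WT male day 10 replicate 1, with the nearest at 10.2 CPM. Psmb9 was at 0.927 CPM in WT male day 10 replicate 2, with the nearest at 0.496 CPM.

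By edgeR's interaction test (log2, day 20 difference minus day 10 difference), 28.3% of all genes were called, 14.7% lower and 13.6% higher. Among the 37 genes, the genotype difference changed between the days in 20. It was lower at day 20 for Isg15 (-1.68), Ifi44 (-1.35), Usp18 (-1.21), Samd9l (-1.12), Bst2 (-1.01), Parp14 (-1.0), Gbp7 (-0.85), Trim30a (-0.78), Ifi27 (-0.73), Herc6 (-0.73), Ifitm3 (-0.69), Ifit2 (-0.58), B2m (-0.55), Parp9 (-0.51), Ifih1 (-0.49) and Irf9 (-0.47). It was higher for Stat2 (0.77), Parp12 (0.59), H2-D1 (0.43) and Tapbp (0.32). Some of these calls were lost under alternatives: Ifitm3 in 11 of 29, Trim30a in 8, Ifit2 in 7, Ifih1 in 5, Usp18, Parp9 and Bst2 in 1 each, and Isg15 in 5 of 28.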

How the results depend on the processing

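Over the comparisons of genotype at each day with both sexes together, the genotype by day interaction and the courses in dKO and WT, no call among the 37 genes reversed its sign under an alternative; signs within 1 sex were not followed. Of the 29 calls at day 20, 26 were made under every alternative that tested the gene; Ddx58, Stat2 and Tap2 were each lost under at least 1. With DESeq2, day 10 gave 2 of the 37 genes and 2105 over all genes, and with only the groups compared 6 over all genes. In females at day 20, only the groups compared gave 10 and 4003. In females at day 10, all genes called were 308 without a filter, 789 with DESeq2, 32 unstranded and 10 with only the groups compared; in males they were 162, 572 and 0 (no filter, DESeq2, only the groups). For genotype by sex at day 20 they were 177, 347 and 1182 in that order, and for the 37 genes 3, 4 and 11; at day 10 no filter gave 2 over all genes. The cause was not tested. With each library left out in turn, all genes called ranged from 15 to 4516 at day 10 (3 to 1277 in females, 2 to 4350 in males), from 1008 to 2700 in females at day 20, and from 0 to 150 and 0 to 1997 for genotype by sex at days 20 and 10. Of the 37 genes, 23 to 25 fell at day 20, 3 to 6 were called in females at day 20, 0 to 2 at day 10 (0 to 3 in males), 0 to 3 and 0 to 1 for genotype by sex at days 20 and 10, and 10 to 19 had a lower genotype by day interaction. No paired analysis was possible because the labels carry no replicate numbers; those used here were given in accession order.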
